A study of Mus musculus with 12 samples.

Results

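The 39 genes described here encode the Wnt ligands, their receptors and co-receptors, the β-catenin and TCF/LEF factors of the pathway and 2 of its feedback target genes, all measured in MC3T3 sc4 cells, a pre-osteoblast line from C57BL/6 mouse calvaria. They were chosen by name from the 23358 rows of the deposited gene table: every gene called Wnt or Fzd followed by a number, plus Lrp5, Lrp6, Ror1, Ror2, Ryk, Axin2, Lef1, Tcf7, Ctnnb1 and Nkd2. The set holds 19 Wnt genes, 10 frizzled receptors, 5 co-receptors, 3 transducer or nuclear factors and 2 targets. The study asked how bone morphogenetic protein 2 (BMP2) and GSK126, a small-molecule inhibitor of the histone methyltransferase EZH2, act alone and together on osteogenic genes. Cells at passage 12 received vehicle, 10 or 50 ng/ml BMP2, 5 µM GSK126, or GSK126 with either BMP2 dose, and RNA was taken on day 1 and day 6. Every culture, the vehicle controls included, was in osteogenic medium with ascorbic acid and β-glycerol phosphate, and all cells came from 1 line, so no comparison is with undifferentiated culture or with another line. Each of the 12 conditions has 1 library. Each factor (GSK126, BMP2, day) was therefore tested across the levels of the others. Within each day the main fit adds an effect of GSK126 and an effect of each BMP2 dose on the log scale. The spread is what this fit leaves over, so a response to 1 agent that depends on the other counts as spread. Separate cultures are not named in the labels. The p-values cover no more than the variation among these 12 libraries, which may be technical or come from such dependence.

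Wnt proteins are lipid-modified secreted ligands that bind frizzled receptors. With the co-receptors LRP5 or LRP6, they stop the destruction complex from degrading β-catenin, which then enters the nucleus and activates genes with TCF and LEF factors. With ROR or RYK co-receptors, they act through cell polarity and calcium signals without β-catenin. Axin2 and Nkd2 are induced by the β-catenin branch in many tissues and dampen it again, so their RNA is often read as a sign of its activity. In bone the β-catenin branch favours osteoblast formation, and loss or gain of LRP5 function changes bone mass. EZH2 places the repressive methyl mark of Polycomb on histone H3, and several Wnt genes are known Polycomb targets in other cells.

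Libraries held 74301112 to 113744802 counts. Rn45s, a precursor of ribosomal RNA, made up 8.96% to 11.7% of the day 1 libraries and 13.1% to 21.7% of those from day 6, and its part in the day results was not tested. Osteoblast markers led by Col1a1 were high in every library: the summed RPKM of 6 markers was 7072 to 8993 on day 1 and 9797 to 22896 on day 6. Adipoq, Plin1, Lep and Cidec of 7 adipocyte markers, Ptprc, Emr1 and Itgam of 6 leukocyte markers, Pecam1, Cdh5, Kdr and Tek of 5 endothelial markers and Epcam, Krt8, Krt18 and Krt5 of 5 epithelial markers stayed under 0.1 RPKM, and Krt18 was at 0 throughout. The leading genes of these lists were higher: Cebpa reached 2.53 RPKM, Lyz2 was at 0.737 to 1.11 on day 1 and 2.42 to 9.29 on day 6, Vwf reached 0.123 on day 1 and 1.2 on day 6, and Cdh1 reached 0.154. Pparg was at 0.147 to 1.35 on day 1 and 0.0588 to 0.273 on day 6, and Fabp4 at 0.138 to 0.482 and 0.185 to 0.836. Cd68 was at 0.588 to 0.745 on day 1 and 0.404 to 0.538 on day 6, and Csf1r at 0.156 to 0.348 and 0.0937 to 0.268. The summed leukocyte markers were at 1.56 to 2.09 RPKM on day 1 and 3.21 to 9.80 on day 6. The part of the marker lists in the day results was not tested. Summed RPKM of 6 chondrocyte markers, led by Col2a1, was 386 to 713 on day 1 and 15.5 to 172 on day 6, with Acan below 0.1. Sox9 was also lower on day 6 (7.86 to 13.4 on day 1 and 3.69 to 5.86 on day 6). Other markers of this list reached higher levels on day 6. Col9a1 reached 0.0376 on day 1 and 0.942 on day 6, Matn1 0.0104 and 0.294, and Comp 0.356 and 0.657. The sum of 5 smooth muscle markers, led by Acta2, was 776 to 957 on day 1 and 103 to 628 on day 6, with Myh11 below 0.1. Tagln was at 81.9 to 91.8 on day 1 and 25.2 to 65.4 on day 6, and Cnn1 at 0.0573 to 0.158 and 0 to 0.0783. Des went the other way, with 0.719 to 1.05 on day 1 and 1.05 to 3.58 on day 6. In such bulk RNA, fewer cells of a type and less RNA per cell cannot be told apart.

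Levels of the 39 genes spanned several orders of magnitude on the deposited RPKM scale (reads scaled to gene length and library total), which allows genes to be compared. Ctnnb1, which encodes β-catenin, was the highest of them at 116 to 132 RPKM on day 1 and 165 to 219 on day 6. Among the ligands on day 1, Wnt10b stood first at 13.0 to 16.5 RPKM. Wnt10a (6.02 to 10.8), Wnt6 (4.47 to 8.25), Wnt5b (2.97 to 3.98), Wnt4 (1.83 to 4.67), Wnt9a (1.74 to 2.03) and Wnt5a (1.15 to 1.52) followed it. Wnt2b (0.171 to 0.267) and Wnt11 (0.120 to 0.285) lay lowest of the ligands tested apart from Wnt7b. In this order Wnt10b did not overlap with Wnt10a, Wnt6 did not overlap with Wnt5b, Wnt9a did not overlap with Wnt5a, and Wnt5a did not overlap with Wnt2b. The other neighbours overlapped in their ranges. On day 6 Wnt10b (8.50 to 27.0 RPKM) and Wnt10a (9.39 to 24.0) overlapped almost fully, and Wnt4 (0.306 to 3.33) had the widest spread relative to its level of the 7 ligands named first. Fzd2 (12.5 to 19.0 RPKM) led the frizzled genes on day 1 without overlapping Fzd7 (9.40 to 11.0), and Fzd5 (5.15 to 9.08), Fzd1 (5.84 to 7.48), Fzd8 (3.35 to 4.51) and Fzd6 (2.54 to 4.14) came next. Of the co-receptors, Ryk lay at 20.6 to 29.1 RPKM over all 12 libraries, Lrp6 at 12.1 to 27.4 and Lrp5 at 8.01 to 16.4.

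Of the 39 genes, 28 passed the filter on low counts and were tested, and 11 were not. The 11 are Wnt1, Wnt2, Wnt3, Wnt3a, Wnt7a, Wnt8a, Wnt8b, Wnt9b, Wnt16, Fzd3 and Fzd10. Fzd3 reached at most 23 read pairs in a library, Wnt1 at most 18 and Wnt8b at most 12. Wnt2, Wnt3, Wnt3a, Wnt7a, Wnt8a, Wnt16 and Fzd10 never exceeded 3 pairs. Wnt9b had 0 pairs in all 12 libraries, which allows up to 0.0527 to 0.0808 CPM (counts scaled to a common library total) depending on the library. Intervals and limits of this kind cover counting error only. Wnt7b, Wnt11, Fzd9 and Nkd2 passed through day 6 alone, so that a higher level on day 6 was partly set by the filter. Of the neighbouring pairs of Wnt genes, Wnt6 and Wnt10a lie 6.7 kb apart on chromosome 1 and were both expressed. Wnt10b and Wnt1 lie 11.7 kb apart on chromosome 15, yet Wnt10b had 1116 to 3977 pairs per library and Wnt1 had 4 to 18. Wnt9a and Wnt3a, 16.2 kb apart on chromosome 11, showed the same contrast, with 312 to 570 pairs for Wnt9a and at most 1 for Wnt3a.

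**Figure D1:**
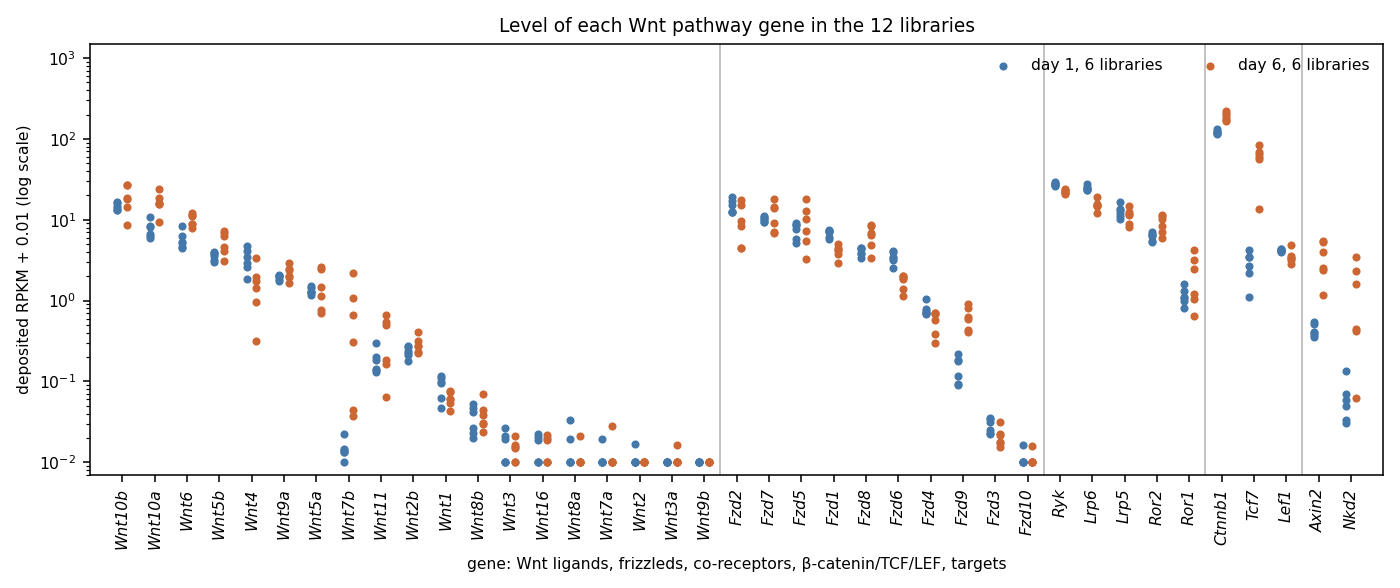
RPKM of each of the 39 genes (log scale, 0.01 added), grouped by role, with 1 point per library, blue for day 1 and orange for day 6. Ctnnb1 was highest at 116 to 219 RPKM, and Wnt7b, Tcf7, Axin2 and Nkd2 lie higher on day 6 than on day 1 in most or all libraries.

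On day 6, 10 of the genes were called in the same direction with GSK126 and with BMP2, and sequences upstream of their starts are shown. The share of all genes called the same way for both was not worked out. RefSeq's promoter table (GRCm38.p6) held a window for 29 of the 39 genes, 37 windows in all. It gave 7 of the 10: Fzd5, Wnt10b and Wnt4, which rose with both agents, and Axin2, Fzd7, Nkd2 and Ror1, which fell with both. Fzd2, Fzd8 and Wnt5a are named only. Each line holds the 250 bases before the start, 5′ to 3′ on the gene's strand, in lower case with CG dinucleotides in capitals. The windows are chr1:64737751-64738000 (minus strand) for Fzd5, chr15:98778151-98778400 (minus) for Wnt10b, chr4:137277385-137277634 (plus) for Wnt4, chr11:108920099-108920348 (plus) for Axin2, chr1:59481897-59482146 (plus) for Fzd7, chr13:73847632-73847881 (minus) for Nkd2 and chr4:100095541-100095790 (plus) for Ror1.
Fzd5: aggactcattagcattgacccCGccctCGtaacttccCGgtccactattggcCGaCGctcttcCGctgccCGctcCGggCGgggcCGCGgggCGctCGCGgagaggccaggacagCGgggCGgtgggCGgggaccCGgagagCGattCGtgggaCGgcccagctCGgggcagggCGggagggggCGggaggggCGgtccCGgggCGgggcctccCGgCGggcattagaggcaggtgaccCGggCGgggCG
Wnt10b: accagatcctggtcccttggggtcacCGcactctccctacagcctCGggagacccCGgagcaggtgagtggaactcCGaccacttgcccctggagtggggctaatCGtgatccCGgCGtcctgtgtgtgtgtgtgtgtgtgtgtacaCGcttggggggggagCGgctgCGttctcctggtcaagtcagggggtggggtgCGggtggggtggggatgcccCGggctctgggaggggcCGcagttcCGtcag
Wnt4: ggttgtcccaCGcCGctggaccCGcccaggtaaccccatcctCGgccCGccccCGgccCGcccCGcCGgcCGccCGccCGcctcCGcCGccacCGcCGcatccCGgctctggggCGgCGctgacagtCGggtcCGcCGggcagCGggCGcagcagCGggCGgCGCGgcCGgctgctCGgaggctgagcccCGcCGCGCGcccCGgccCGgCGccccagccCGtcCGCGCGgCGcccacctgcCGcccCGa
Axin2: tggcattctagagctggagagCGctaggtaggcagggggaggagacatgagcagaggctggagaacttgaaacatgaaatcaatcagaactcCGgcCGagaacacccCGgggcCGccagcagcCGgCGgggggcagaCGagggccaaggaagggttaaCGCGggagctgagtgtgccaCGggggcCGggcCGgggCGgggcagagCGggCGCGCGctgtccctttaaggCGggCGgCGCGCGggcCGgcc
Fzd7: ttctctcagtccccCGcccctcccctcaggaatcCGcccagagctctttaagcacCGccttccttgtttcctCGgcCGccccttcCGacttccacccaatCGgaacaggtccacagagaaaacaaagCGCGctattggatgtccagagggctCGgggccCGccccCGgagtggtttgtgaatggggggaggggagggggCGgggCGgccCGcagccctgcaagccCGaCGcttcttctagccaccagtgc
Nkd2: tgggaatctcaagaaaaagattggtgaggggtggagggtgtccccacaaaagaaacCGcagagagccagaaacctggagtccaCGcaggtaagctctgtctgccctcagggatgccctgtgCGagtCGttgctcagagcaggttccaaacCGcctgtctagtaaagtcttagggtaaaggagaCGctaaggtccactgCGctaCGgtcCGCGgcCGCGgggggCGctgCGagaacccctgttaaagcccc
Ror1: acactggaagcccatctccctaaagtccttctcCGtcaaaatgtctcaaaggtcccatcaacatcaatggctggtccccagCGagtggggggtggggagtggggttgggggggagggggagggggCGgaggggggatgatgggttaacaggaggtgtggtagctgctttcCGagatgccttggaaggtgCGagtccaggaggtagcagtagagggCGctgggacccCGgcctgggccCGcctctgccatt

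The windows differed widely in CG content. Wnt4 had 44 CG, Fzd5 32, Axin2 24, Fzd7 17, Wnt10b 14, Nkd2 14 and Ror1 8, beside a median of 6 (quartiles 2 and 16) over all 32851 windows of the table. The 2 highest counts belonged to genes that rose and the lowest to one that fell, but Axin2 and Fzd7, which fell, had more CG than Wnt10b, which rose. CTTTGA, the core of the motif that TCF and LEF factors bind, was sought on both strands. It was found once among the 7 windows, 205 bases before the start of Ror1. It was present in 5 of the 37 windows of the set (those of Fzd1, Lef1, Wnt11, Wnt5b and Ror1) and in 13.8% of all windows. A match describes the letters of the window and is not evidence of binding.

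The first comparison asked how the genes differed between day 6 and day 1 over the 6 treatments. Among the genes that rose were the TCF factor gene Tcf7 and the feedback gene Axin2. The ligand gene Wnt7b, the feedback gene Nkd2 and the frizzled gene Fzd9 also rose, but they passed the filter on low counts through day 6 alone. Their rise was thus partly set by the filter, and the counts below include them. Of the 28 tested genes 18 rose and 5 fell in edgeR (quasi-likelihood test, Benjamini-Hochberg adjustment), beside 78.0% of all genes tested that were called in this comparison (40.5% higher and 37.5% lower). With library size alone as scaling, which moved the median of all genes by -0.209 on the log2 scale, 14 rose and 7 fell. By role, 8 ligands, 4 frizzled genes, 2 co-receptors, 2 of the transducer and nuclear factors and both targets rose, while 1 ligand, 3 frizzled genes and 1 co-receptor fell. The median log2 change of the 28 genes was 0.517, and that of all genes tested was 0.0301. Values of 6 libraries are given in the order vehicle, 10 ng/ml BMP2, 50 ng/ml BMP2, GSK126 alone, GSK126 with 10 ng/ml BMP2 and GSK126 with 50 ng/ml BMP2.

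Tcf7 encodes TCF1, a DNA-binding partner of β-catenin, and lies on chromosome 11 (52252604 to 52282571). Its RPKM on day 1 was 1.11, 2.64, 3.45, 2.18, 3.43 and 4.18. On day 6 it was 13.7, 68.5, 60.1, 56.4, 83.8 and 65.9. The lowest library of day 6, vehicle, lay above every library of day 1, and the other 5 of day 6 were each at least as high as 56.4 RPKM. The fitted rise was 4.59 ± 0.30 (standard error, log2 scale; adjusted p = 9.8e-06; higher in 6 of 6 treatments). Lef1, the other DNA-binding factor of the set, had 4.02 to 4.35 RPKM on day 1 and 2.86 to 4.82 on day 6, and its log2 change of -0.04 ± 0.11 did not pass (adjusted p = 0.78). Lef1 was the higher of the pair in all 6 libraries of day 1, and Tcf7 in all 6 of day 6. Ctnnb1 rose by 0.87 ± 0.05 (adjusted p = 6.5e-06), and the days did not overlap.

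Axin2 encodes a scaffold of the destruction complex, and its gene lies on chromosome 11 (108920349 to 108950781). It measured 0.383, 0.361, 0.348, 0.526, 0.501 and 0.401 RPKM on day 1 and 5.28, 5.48, 2.51, 3.93, 2.40 and 1.15 on day 6. All 6 libraries of day 6 were above all 6 of day 1, and the rise was 3.12 ± 0.14 (adjusted p = 1.4e-06). Nkd2, which encodes a protein that binds Dishevelled and restrains the pathway, lies on chromosome 13 (73819328 to 73847631). It had 0.123, 0.0403, 0.0209, 0.0602, 0.0486 and 0.0229 RPKM on day 1, from 4 to 19 read pairs, and 2.33, 3.46, 0.412, 1.58, 0.431 and 0.0526 on day 6. Nkd2 rose by 4.36 ± 0.46 (adjusted p = 9.5e-05) in 6 of 6 treatments, although the library with GSK126 and 50 ng/ml BMP2 on day 6 overlapped with day 1.

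Wnt7b, a ligand that acts on osteoblasts in developing bone, was close to absent on day 1, with 0 to 3 read pairs per library. On day 6 it had 171, 502, 8, 273, 87 and 7 pairs, or 0.657, 2.21, 0.0348, 1.07, 0.298 and 0.0269 RPKM. It passed the test (adjusted p = 0.00045), with no fold given because day 1 lay at the floor of 3 pairs. The 2 libraries with 50 ng/ml BMP2 held nearly none of this signal. Wnt10a rose by 1.34 ± 0.14 (adjusted p = 0.00011) and Wnt6, its neighbour, by 1.08 ± 0.09 (adjusted p = 3.5e-05), and neither overlapped between days. The frizzled gene Fzd9 rose by 2.45 ± 0.23 (adjusted p = 4.9e-05) from 8 to 31 read pairs on day 1 to 43 to 112 on day 6.

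Wnt4, a ligand with roles in bone and kidney, fell by 1.00 ± 0.17 (log2, adjusted p = 0.001), with the same direction at all 6 treatments. Its RPKM was 1.83, 2.94, 3.43, 2.62, 4.06 and 4.67 on day 1 and 0.306, 0.950, 1.72, 1.41, 1.94 and 3.33 on day 6. The vehicle library of day 6 was the lowest of the 12, and with GSK126 and 50 ng/ml BMP2 the days lay closest together. Fzd6 fell by 0.79 ± 0.04, Fzd2 by 0.53 ± 0.04, Fzd1 by 0.52 ± 0.07 and Lrp6 by 0.46 ± 0.05 on the log2 scale. Fzd2 was lower on day 6 in 5 of 6 treatments, but not under vehicle, and its days overlapped. The remaining called genes rose by 0.26 (Wnt5a) to 0.85 (Fzd8). Among these, Wnt10b, Wnt5a, Fzd5 and Fzd8 were lower on day 6 than on day 1 under vehicle. Wnt10b and Fzd8 were higher on day 6 in each of the treated pairs, and Fzd7 was higher in 4 of 6 treatments. Fzd4, Ryk, Lrp5, Lef1 and Wnt11 did not pass. The calls of 3 ligands ended when single libraries were left out: Wnt5a (any of 6 on day 1, or vehicle or 50 ng/ml BMP2 on day 6, log2 0.189 to 0.267), Wnt9a (day 1 50 ng/ml BMP2, day 1 GSK126 or day 6 GSK126 with 10 ng/ml, 0.354 to 0.388) and Wnt2b (day 1 vehicle or 50 ng/ml, 0.435 to 0.486). They also ended, with that of Fzd7, under library size alone. Wnt9a stood at 0.245 without day 6 vehicle, and Wnt5a at 0.154 without day 6 GSK126 with 10 ng/ml.

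**Figure D2:**
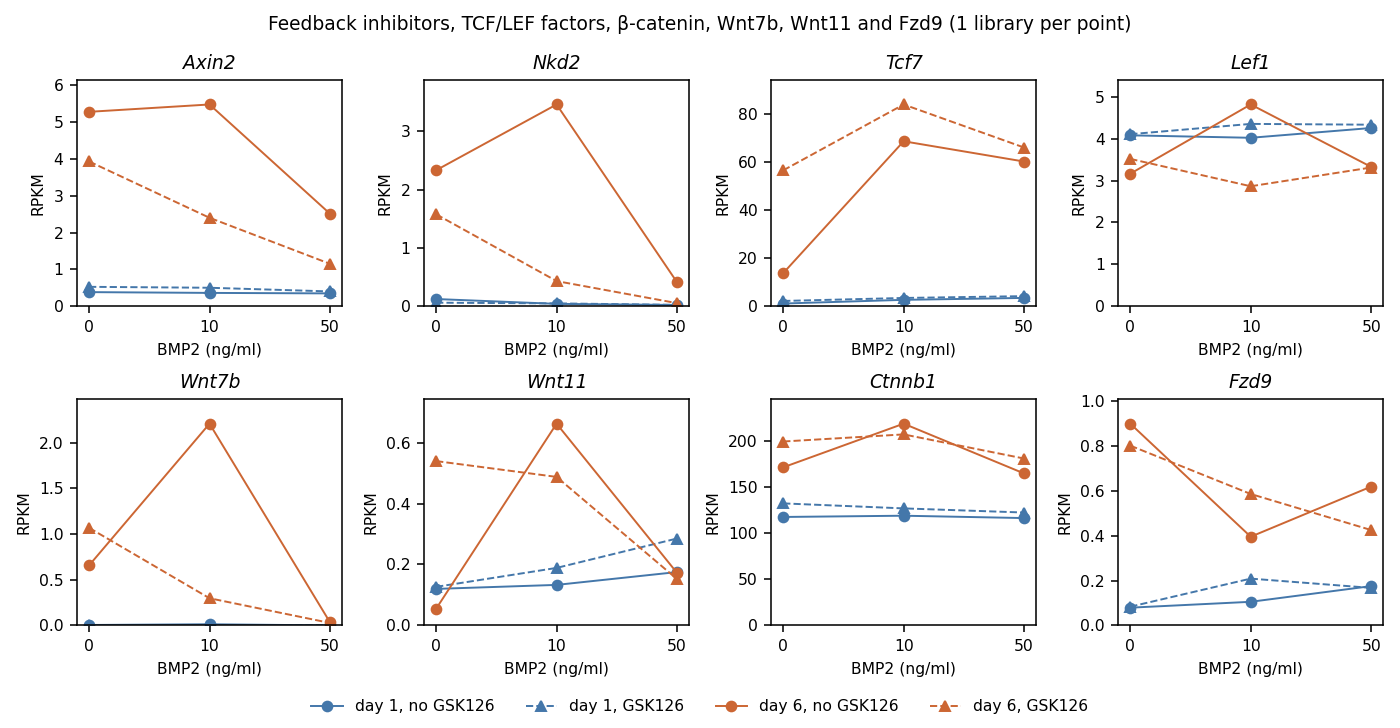
RPKM of 8 genes against BMP2 dose (doses evenly spaced), with 1 library per point, colour for day and dashed lines with triangles for GSK126. Tcf7 on day 6 stands at 13.7 RPKM under vehicle and at 56.4 to 83.8 in the 5 treated libraries, while Axin2, Nkd2 and Wnt7b are lowest on day 6 at 50 ng/ml BMP2 with GSK126.

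For the inhibitor, the libraries of day 6 with GSK126 were set against those without it at the 3 BMP2 levels (0, 10 and 50 ng/ml). Of the tested genes 3 of 10 ligands and 3 of 8 frizzled genes were higher with GSK126, and both feedback targets and both ROR co-receptors were lower. Of the 28 genes 7 rose and 6 fell, beside 28.3% of all genes tested that were called (14.3% higher and 14.0% lower). Wnt4, Wnt5a, Wnt10b, Fzd4, Fzd5, Fzd8 and Lrp5 rose, and Axin2, Nkd2, Ror1, Ror2, Fzd2 and Fzd7 fell, each at all 3 BMP2 levels. The median change over the 28 genes was 0.02, and that of all genes tested was -0.0017.

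Among the ligands, Wnt4 (chromosome 4, 137277635 to 137299501) went from 0.306 to 1.41 RPKM without BMP2, from 0.950 to 1.94 at 10 ng/ml and from 1.72 to 3.33 at 50 ng/ml. The log2 rise was 1.25 ± 0.24 (adjusted p = 0.01). Wnt5a (chromosome 14, 28505473 to 28525515), the best known ligand of the branch without β-catenin, went from 0.695 to 1.48, from 0.764 to 2.44 and from 1.13 to 2.57 RPKM. Its lowest library with GSK126 lay above its highest without, and it rose by 1.24 ± 0.13 (adjusted p = 0.00087). Wnt10b (chromosome 15, 98771752 to 98778150), a ligand that favours osteoblast over adipocyte fate, went from 8.50 to 18.6, from 14.3 to 27.0 and from 18.2 to 26.9 RPKM. The groups of Wnt10b overlapped across doses, and at each dose the GSK126 library was the higher (0.79 ± 0.14, adjusted p = 0.0065). Wnt5b stood at 0.33 ± 0.10 and did not pass (adjusted p = 0.053), nor did Wnt2b, Wnt6, Wnt7b, Wnt9a, Wnt10a or Wnt11.

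Among the receptors, Fzd5 (chromosome 1, 64730558 to 64737750) went from 3.26 to 7.29, from 5.52 to 12.8 and from 10.2 to 17.8 RPKM with GSK126. It rose by 0.98 ± 0.11 (adjusted p = 0.0013). Fzd4 rose by 0.71 ± 0.18 (adjusted p = 0.025), from 0.292 to 0.571 RPKM in the 3 libraries without GSK126 to 0.671 to 0.699 in those with it. Fzd8 rose by 0.62 ± 0.16 and Lrp5 by 0.39 ± 0.08. Ror1 (chromosome 4, 100095791 to 100442545), a receptor for Wnt5a, moved the other way, from 4.17 to 2.42, from 3.16 to 1.19 and from 1.04 to 0.627 RPKM. Ror1 fell by 1.05 ± 0.14 on the log2 scale (adjusted p = 0.0024), and its relative Ror2 fell by 0.51 ± 0.12 (adjusted p = 0.019). Fzd7 fell by 0.44 ± 0.09 and Fzd2 by 0.21 ± 0.06.

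The feedback genes were lower at every dose. Axin2 went from 5.28 to 3.93 RPKM without BMP2, from 5.48 to 2.40 at 10 ng/ml and from 2.51 to 1.15 at 50 ng/ml, a fall of 0.98 ± 0.17 on the log2 scale (adjusted p = 0.0072). Nkd2 went from 2.33 to 1.58, from 3.46 to 0.431 and from 0.412 to 0.0526 RPKM and fell by 2.08 ± 0.53 (adjusted p = 0.026). Tcf7 went from 13.7 to 56.4, from 68.5 to 83.8 and from 60.1 to 65.9 RPKM, so that most of its difference lay in the libraries without BMP2. Over the doses its log2 value was 0.72 ± 0.38 and did not pass (adjusted p = 0.2). Ctnnb1 (0.02 ± 0.07) and Lef1 (-0.28 ± 0.16) did not pass.

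The calls of Fzd5, Wnt5a and Ror1 held under all 19 alternatives run for them, among them a fit of the 6 libraries of day 6 alone, in which they were the 3 genes called. Single libraries ended other calls. Axin2 (log2 -0.854 to -0.852, adjusted p = 0.054) and Lrp5 (0.333 to 0.334) were lost without day 6 10 ng/ml BMP2 or day 6 GSK126 with 10 ng/ml, and the count of called genes then fell to 6. Ror2 (-0.418 to -0.399) and Nkd2 (-2.1 to -1.45) were lost without any 1 of the 4 BMP2-treated libraries of day 6, and Nkd2 also without any of the 4 of day 1. Without day 6 vehicle or day 6 GSK126, Nkd2 stood at -3.07. Fzd4 (0.549 to 0.713) was lost without any of the 4 BMP2-treated libraries of day 6 or either library with 10 ng/ml of day 1. Fzd8 (0.447 to 0.617) was lost without day 6 vehicle, GSK126, 10 ng/ml or GSK126 with 10 ng/ml, or without day 1 vehicle, GSK126, 50 ng/ml or GSK126 with 50 ng/ml. Fzd2 (-0.228 to -0.198) was lost without any library of day 6 or the same 4 of day 1. On day 6 the summed RPKM of the smooth muscle markers was 231 to 628 without GSK126 and 103 to 320 with it, that of the chondrocyte markers was 15.5 to 51.6 and 49.1 to 172, and that of the leukocyte markers, led by Lyz2, was 3.21 to 4.74 and 6.72 to 9.80. The part of these markers in the results was not tested.

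The third comparison asked what BMP2 changed on day 6, as the mean of both doses. Of the 28 genes 6 rose and 5 fell, beside 28.7% of all genes tested that were called (13.3% higher and 15.5% lower). Wnt4, Wnt5a, Wnt5b, Wnt10b, Fzd5 and Fzd8 rose, and Axin2, Nkd2, Ror1, Fzd2 and Fzd7 fell. With library size alone as scaling, 7 rose and 9 fell, and the median of all genes moved by -0.145. The median over the 28 genes was -0.0568, and over all genes tested it was -0.00168.

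The ligand Wnt4 went from 0.306 RPKM at no BMP2 to 0.950 and 1.72 at 10 and 50 ng/ml without GSK126, and from 1.41 to 1.94 and 3.33 with it. It rose by 1.48 ± 0.27 (adjusted p = 0.0082) and was higher than its BMP2-free counterpart in 4 of 4 libraries. Wnt5b, a ligand close in sequence to Wnt5a, had 3.04 RPKM at no BMP2 and 4.59 and 6.22 with it, and 4.08, 6.81 and 7.26 with GSK126. All 4 BMP2 libraries of Wnt5b lay above both without BMP2 (0.94 ± 0.11, adjusted p = 0.0016). Wnt10b rose by 0.87 ± 0.15 (adjusted p = 0.0063) and Wnt5a by 0.75 ± 0.14 (adjusted p = 0.0082).

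Of the frizzled genes 2 rose and 2 fell. Fzd5 climbed with dose, from 3.26 to 5.52 and 10.2 RPKM without GSK126 and from 7.29 to 12.8 and 17.8 with it, a rise of 1.27 ± 0.12 (adjusted p = 0.00072). Fzd8 rose by 0.73 ± 0.17 (adjusted p = 0.019). Fzd2 (chromosome 11, 102604431 to 102608058) dropped with dose, from 17.5 to 9.56 and 4.48 RPKM without GSK126 and from 15.3 to 8.34 and 4.42 with it. The groups of Fzd2 did not overlap, and it fell by 1.23 ± 0.06 on the log2 scale (adjusted p = 8.6e-05), the smallest adjusted p of the set in this comparison. Fzd7 (chromosome 1, 59482147 to 59486955) went from 18.0 to 14.5 and 7.04 RPKM and from 14.0 to 8.98 and 6.83, and fell by 0.69 ± 0.09 (adjusted p = 0.0022). Ror1 went from 4.17 to 3.16 and 1.04 RPKM and from 2.42 to 1.19 and 0.627, and fell by 1.20 ± 0.14 (adjusted p = 0.0014).

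Axin2 fell by 0.75 ± 0.18 on the log2 scale (adjusted p = 0.02) and Nkd2 by 2.04 ± 0.52 (adjusted p = 0.027), each in 3 of 4 libraries. The exception for both was 10 ng/ml BMP2 without GSK126, where Axin2 was at 5.48 and Nkd2 at 3.46 RPKM against 5.28 and 2.33 under vehicle. Tcf7 was higher in all 4 BMP2 libraries than in its BMP2-free counterparts, but at 1.33 ± 0.43 it did not pass (adjusted p = 0.056). Wnt7b, at -2.34 ± 0.73, did not pass either (adjusted p = 0.053). DESeq2 called Tcf7 in this comparison (1.35 ± 0.49, adjusted p = 0.024), and the fit with library size alone called both. Without day 6 GSK126 Tcf7 stood at 2.44 (adjusted p = 0.00042), and without day 6 vehicle Wnt7b stood at -4.00 (adjusted p = 0.0029).

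The calls of Fzd2, Fzd5, Fzd7, Ror1, Wnt5b and Wnt10b held under all 19 alternatives run for them. Nkd2 was lost without GSK126 with either BMP2 dose on day 6, or without any of the 4 BMP2-treated libraries of day 1 (log2 -2.06 to -1.52), and it ranged from -3.29 without day 6 vehicle to -0.76 without day 6 GSK126. Wnt4 stood at 2.28 without day 6 GSK126 and at 0.925 without day 6 vehicle. Without day 6 GSK126 the count of called genes was 20. Fzd8 was lost without day 6 vehicle or day 6 GSK126 with 10 ng/ml (0.488 to 0.651), and Axin2 without the latter (-0.644, adjusted p = 0.087). Axin2 ranged from -1.17 without day 6 vehicle to -0.30 without day 6 GSK126. On day 6 the smooth muscle sum was 320 to 628 RPKM without BMP2 and 103 to 496 with it, the chondrocyte sum 15.5 to 49.1 and 18.5 to 172, and the osteoblast sum 9797 to 12029 and 11481 to 22896. The part of these markers in the results was not tested.

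**Figure D3:**
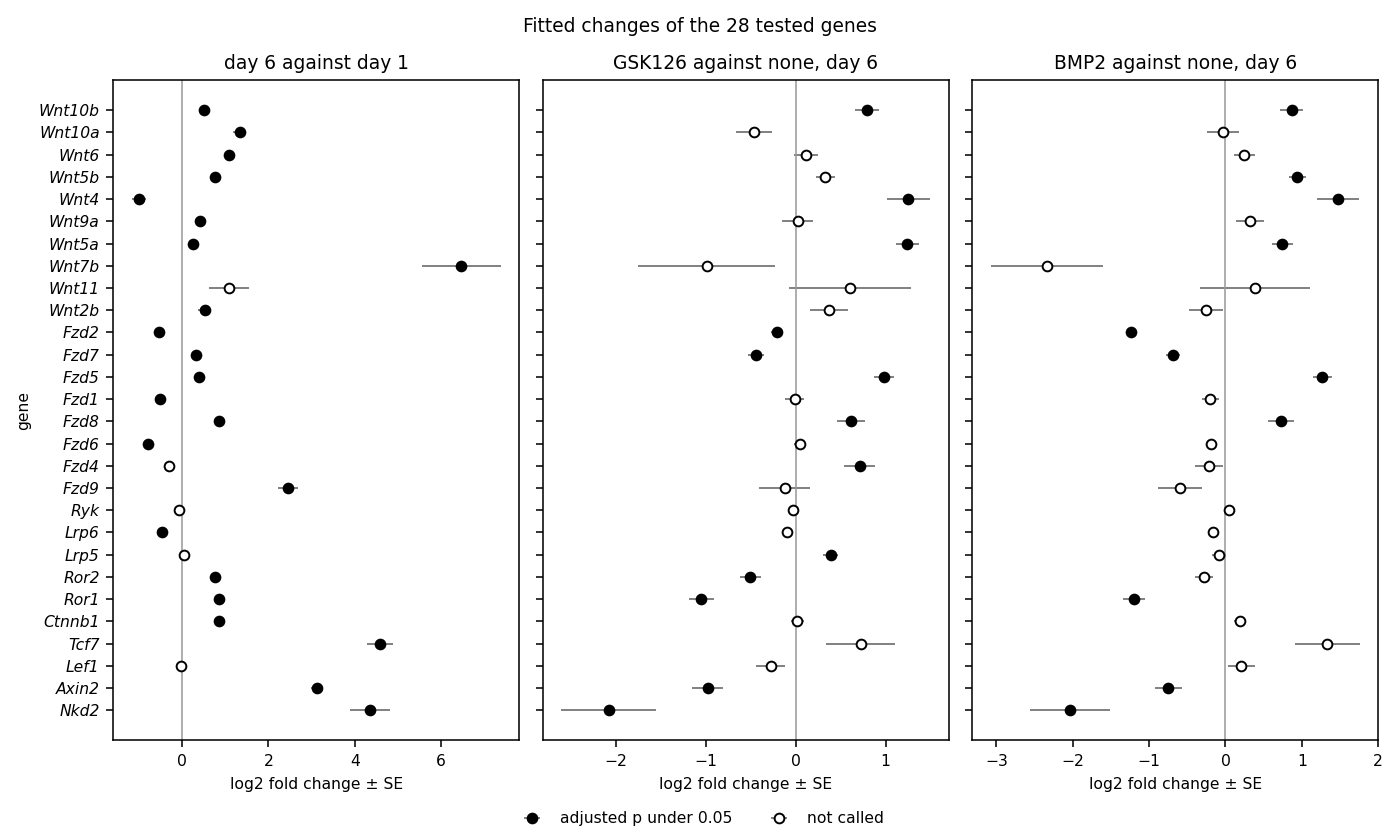
Log2 fold changes of the 28 tested genes with their standard errors (12 libraries), for day, GSK126 on day 6 and BMP2 on day 6, with filled points for adjusted p under 0.05. For GSK126, Wnt4 (1.25) and Wnt5a (1.24) lie farthest to the right among the called genes and Nkd2 (-2.08) farthest to the left.

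The 2 BMP2 doses on day 6 were also compared. At 50 against 10 ng/ml 2 genes were higher and 7 lower, beside 11.8% of all genes tested that were called (5.33% higher and 6.47% lower). With library size alone 1 was higher and 8 were lower. Wnt7b dropped most, from 2.21 to 0.0348 RPKM without GSK126 and from 0.298 to 0.0269 with it (-4.89 ± 0.99, adjusted p = 0.025). Nkd2 went from 3.46 to 0.412 and from 0.431 to 0.0526 RPKM (-2.77 ± 0.64, adjusted p = 0.038). Both genes were thus high at 10 ng/ml without GSK126 and low at 50 ng/ml. Ror1 (-1.12 ± 0.17), Axin2 (-0.93 ± 0.21), Fzd2 (-0.85 ± 0.07), Fzd7 (-0.56 ± 0.11) and Fzd6 (-0.44 ± 0.07) were lower, and Fzd5 (0.85 ± 0.14) and Lrp5 (0.40 ± 0.10) higher. These dose calls were fragile. Without day 6 10 ng/ml BMP2 only Fzd2 remained called, with Wnt7b at -2.91, Nkd2 at -1.79 and Fzd7 at -0.347. Fzd5 stood at 0.548 without day 6 50 ng/ml BMP2. Without any 1 library of day 1 the count was 4. It was 14 without day 6 vehicle or without day 6 GSK126, and 0 in a fit of day 6 alone.

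On day 6, 10 genes were called in the same direction for GSK126 and for BMP2, and 0 in opposite directions. The share of all genes called the same way for both agents was not worked out, so the 10 cannot be set against it. Both comparisons use the same 6 libraries of day 6, vehicle and the combinations among them, so the match is not independent evidence of a shared response. The plot of ligands and receptors shows 8 of the 10, and the other two are Axin2 and Nkd2. In log2 changes for GSK126 and then BMP2, Wnt4 stood at 1.25 and 1.48, Wnt5a at 1.24 and 0.75, Wnt10b at 0.79 and 0.87, Fzd5 at 0.98 and 1.27, and Fzd8 at 0.62 and 0.73. The lower genes stood at -2.08 and -2.04 for Nkd2, -1.05 and -1.20 for Ror1, -0.98 and -0.75 for Axin2, -0.44 and -0.69 for Fzd7, and -0.21 and -1.23 for Fzd2. The library with GSK126 and 50 ng/ml BMP2 was the highest of day 6 for Wnt4, Wnt5a and Fzd5 and the lowest for Axin2, Nkd2, Ror1, Fzd2 and Fzd7.

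**Figure D4:**
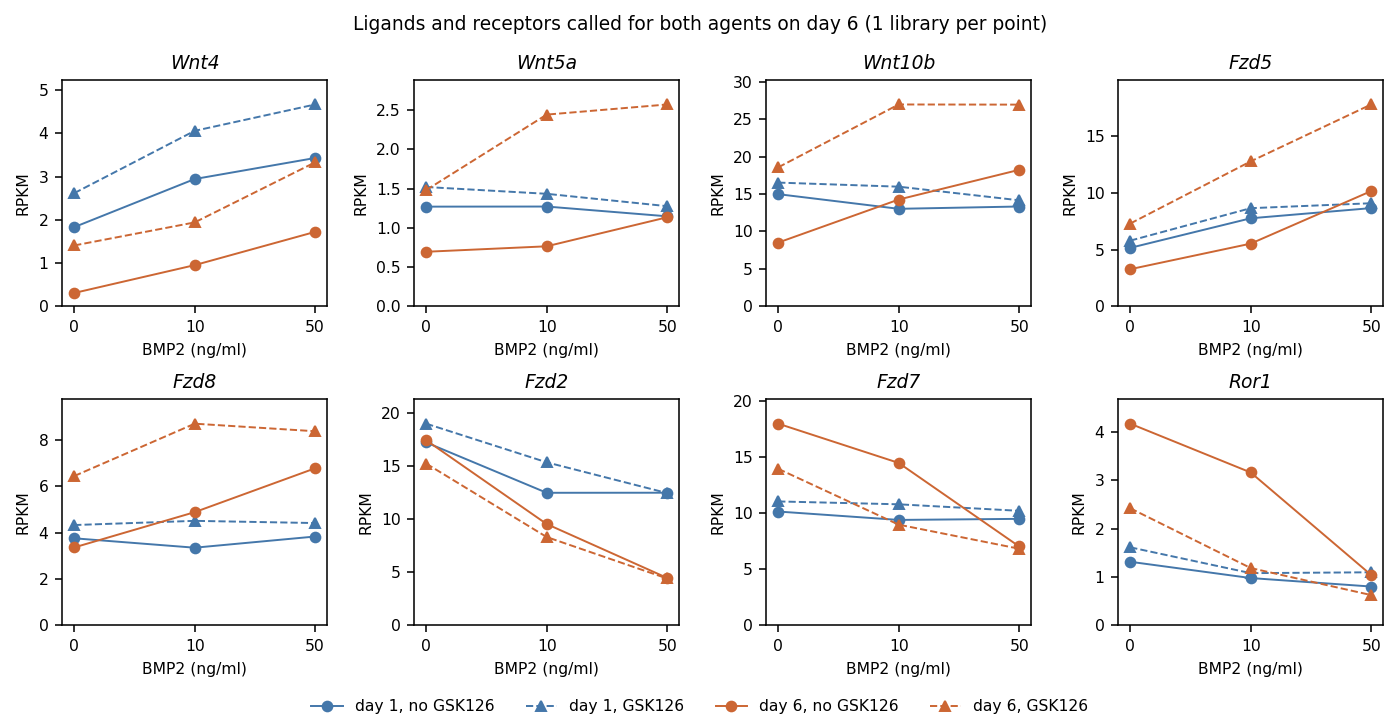
RPKM of Wnt4, Wnt5a, Wnt10b, Fzd5, Fzd8, Fzd2, Fzd7 and Ror1 against BMP2 dose (doses evenly spaced), 1 library per point, colour for day and dashed lines with triangles for GSK126. On day 6 Fzd5 runs from 3.26 RPKM under vehicle to 17.8 with GSK126 and 50 ng/ml BMP2, and Fzd2 from 17.5 to 4.42.

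The combinations were described in CPM against an additive sum (GSK126 plus BMP2 minus vehicle), without a test, since each combination has 1 library. Of the 28 genes 4 exceeded the sum at least 1.25-fold at both doses, beside 10.6% of all genes tested. They were Wnt9a (1.93 and 1.84 times the sum at 10 and 50 ng/ml), Wnt5a (1.57 and 1.25), Fzd4 (1.43 and 1.60) and Lrp5 (1.27 and 1.34). For Wnt9a and Fzd4 at both doses, and for Lrp5 at 10 ng/ml, that sum was itself below vehicle. Wnt9a had 10.5 CPM in the 10 ng/ml combination and 10.2 under vehicle, and Lrp5 had 79.1 CPM in that combination and 84.1 with GSK126 alone. Wnt5a had 14.1 and 15.6 CPM in the combinations, against 8.34 with GSK126 alone and 4.51 and 7.94 with BMP2 alone. At or under 1/1.25 of the sum at both doses were 8 genes, beside 5.81% of all genes. Wnt7b was the farthest below (0.111 and 0.0623), followed by Wnt11 (0.423 and 0.234), Wnt10a (0.578 and 0.446), Axin2 (0.551 and 0.67), Ror2 (0.661 and 0.687), Tcf7 (0.748 and 0.603), Lef1 (0.539 and 0.786) and Wnt2b (0.741 and 0.799). For Tcf7 each agent alone already gave 56.4 to 68.5 RPKM against 13.7 under vehicle, and the combinations gave 83.8 and 65.9. Wnt11, a ligand that guides cell movement, was at 9 read pairs under vehicle, 95 at 10 ng/ml BMP2, 25 at 50 ng/ml, 87 with GSK126, and 90 and 25 in the combinations. For Ror1 and Nkd2 the additive sum at 50 ng/ml was below 0, so no ratio is given. In the fit with an interaction term, edgeR's quasi-likelihood test called 0 of the 28 genes, as it called 0% of all genes. That fit takes 10 and 50 ng/ml together as presence of BMP2, so a difference between doses counts as spread. The lack of calls therefore does not show that the agents act independently. At an unadjusted p under 0.05 were 7 of the 28, beside 9.33% of all genes. Tcf7 stood at -1.96 ± 0.29 (adjusted p = 0.23). DESeq2 called 1, Tcf7 (-1.95 ± 0.30, adjusted p = 9.5e-08), and limma-voom called 0. Without day 6 10 ng/ml BMP2 edgeR called Tcf7 as well (-1.99, adjusted p = 0.05).

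On day 1 few calls were made in the fit of both days. For GSK126 edgeR's quasi-likelihood test called 0 of the 28, as it called 0% of all genes, and DESeq2 and limma-voom also called 0 of the 28. At an unadjusted p under 0.05 were 3 of the 28, beside 6.26% of all genes. A fit of the 6 libraries of day 1 alone, which estimates the spread from that day, called 10 of the 28, all higher. The share of all genes called by that fit is not given here, for GSK126 or for BMP2, so its counts cannot be set against it. Wnt4 at 0.415 ± 0.047 (adjusted p = 0.00032) and Lrp5 at 0.291 ± 0.022 (adjusted p = 2.7e-05) were among the 10. In the fit of both days those genes stood at 0.42 ± 0.23 and 0.29 ± 0.08 and did not pass (adjusted p = 0.81 and 0.79). For BMP2, 2 genes rose and 1 fell on day 1, beside 3.66% of all genes tested that were called (1.80% higher and 1.86% lower). Fzd5 went from 5.15 to 7.76 and 8.65 RPKM without GSK126 and from 5.78 to 8.65 and 9.08 with it, a rise of 0.65 ± 0.12 (adjusted p = 0.038). Fzd6 rose by 0.40 ± 0.06 (adjusted p = 0.024). Fzd2 went from 17.3 to 12.5 and 12.5 RPKM and from 19.0 to 15.4 and 12.5, and fell by 0.45 ± 0.06 (adjusted p = 0.015). None of the 3 overlapped between libraries with and without BMP2. Without day 1 vehicle, 10 ng/ml BMP2, 50 ng/ml BMP2, GSK126, or GSK126 with 50 ng/ml the count was 0, without GSK126 with 10 ng/ml it was 1, and without day 6 vehicle or day 6 GSK126 it was 10. The fit of day 1 alone called 13, 5 higher and 8 lower, among them Tcf7 (1.08 ± 0.12, adjusted p = 1.4e-05), Wnt4 (0.776 ± 0.053, adjusted p = 2.6e-07), Wnt10a (-0.486 ± 0.05, adjusted p = 9.9e-06) and Ror1 (-0.554 ± 0.099, adjusted p = 0.00081). DESeq2 called 5, with Wnt4 (0.78, adjusted p = 0.016) and Ror1 (-0.551, adjusted p = 0.023) beside the 3. In the fit of both days Tcf7 stood at 1.10 ± 0.45, Wnt4 at 0.78 ± 0.25, Ror1 at -0.55 ± 0.15, Fzd9 at 1.02 ± 0.41 and Nkd2 at -1.47 ± 0.83. None of these 5 passed there. The libraries with and without BMP2 did not overlap for any of them, nor for Wnt10a, Lrp6 and Wnt11, which did not pass either. The share of all genes without such overlap was not worked out, so this does not set these genes apart.

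The change of each effect between days was then tested. The GSK126 effect differed between days for 6 genes, 2 higher and 4 lower on day 6, beside 10.5% of all genes tested (3.94% higher and 6.52% lower). Fzd5 (difference of log2 changes 0.91 ± 0.16) and Wnt5a (1.10 ± 0.18) had the larger response on day 6. Axin2 (-1.30 ± 0.26), Ror1 (-1.29 ± 0.20), Ror2 (-0.67 ± 0.16) and Fzd7 (-0.53 ± 0.12) had values of 0.09 to 0.32 on day 1 that did not pass and fell on day 6. The BMP2 effect differed for 6 genes, 3 each way, beside 9.14% of all genes (3.82% higher and 5.33% lower). Wnt10b (1.02 ± 0.20), Wnt5b (0.86 ± 0.16) and Wnt5a (0.86 ± 0.19) had a higher response on day 6. Fzd2 (-0.78 ± 0.09), Fzd7 (-0.61 ± 0.13) and Fzd6 (-0.59 ± 0.09) had a lower one. For Fzd6 the BMP2 change was 0.40 on day 1 and -0.19 ± 0.06 on day 6, which did not pass (adjusted p = 0.06). With any 1 library of day 1 left out, at most 1 gene was called for GSK126 and at most 2 for BMP2. Without day 6 10 ng/ml BMP2 or day 6 GSK126 with 10 ng/ml, 3 were called for GSK126. Without day 6 vehicle or day 6 GSK126, 11 were called for GSK126 and 13 or 12 for BMP2, and without day 6 GSK126 with 50 ng/ml 10 were called for BMP2.

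Other genes of the pathway, outside the 39, were taken from lists of 90 genes by role, of which 89 were in the table and 69 were tested. Between days 31 of the 69 rose and 28 fell, with GSK126 on day 6 there were 6 that rose and 11 that fell, and with BMP2 on day 6 there were 7 and 14. Over all genes tested the called shares were 78.0%, 28.3% and 28.7% in these comparisons (40.5%, 14.3% and 13.3% higher, 37.5%, 14.0% and 15.5% lower), and the counts per list are too small to be read against them. Dkk2, Fgf18, Frat2 and Rnf43 passed the filter on low counts through day 6 alone and Frzb through the GSK126 libraries of day 6 alone, so that their higher levels there were partly set by the filter. In ligand processing, Notum, whose product strips the lipid from Wnt proteins, rose by 3.74 ± 0.26 with day, and Porcn, whose product adds it, by 1.93 ± 0.07. Of the 6 tested genes of this list 4 rose with day and 2 fell. Of the 6 tested secreted inhibitors 4 rose with day and 2 fell, with Wif1 at 6.38 ± 0.65. With GSK126 on day 6, 1 of these 6 rose (Frzb, at 0.0116, 0.0665 and 0.191 RPKM without and 0.669, 1.17 and 1.60 with it) and 3 fell, among them Sfrp2 (-0.53 ± 0.06). With BMP2 on day 6, 0 passed as higher and 3 as lower, among them Dkk2 (-3.15 ± 0.34) and Sfrp2 (-1.87 ± 0.07). Wif1 did not pass for BMP2, although it was higher in every BMP2 library of day 6 than in its BMP2-free counterpart. Its RPKM on day 6, in the order given above, was 1.45, 36.6, 55.5, 15.2, 34.0 and 36.0. Sfrp2, which binds Wnt ligands, was at 83.6 RPKM under vehicle on day 6 and at 11.6 with GSK126 and 50 ng/ml BMP2.

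In the R-spondin axis, which controls how much receptor stays on the cell surface, 2 of 6 tested genes rose with day and 4 fell. Rnf43, a ligase that removes frizzled receptors and a frequent target of the β-catenin branch, rose by 5.73 ± 0.23. The R-spondin receptor gene Lgr6 fell with day and passed the test as higher on day 6 with either agent. It was at 12.8 to 34.7 RPKM on day 1 and at 0.00937, 0.0215, 0.340, 0.0286, 0.513 and 5.84 RPKM in the 6 libraries of day 6, too near 0 in the controls for a fold to be given. The ligand gene Rspo2 fell with day (-2.81 ± 0.05), with GSK126 (-0.45 ± 0.07) and with BMP2 (-1.04 ± 0.07). Of 12 tested canonical target genes other than Axin2 and Nkd2, 9 rose with day and 2 fell, with Tnfrsf19 at 5.39 ± 0.28 and Fgf18 at 3.01 ± 0.27. For GSK126 on day 6, 0 of these 12 passed. For BMP2 1 rose (Wisp1, 0.75 ± 0.11) and 2 fell (Fgf18, -2.80 ± 0.31, and Dact1, -0.99 ± 0.08). Tnfrsf11b passed for neither agent, although vehicle was its lowest library of day 6. Its RPKM on day 6, in the order given above, was 20.2, 144, 88.8, 118, 156 and 52.8. Of 16 tested transducers and destruction complex genes, 5 rose and 6 fell with day, 1 rose and 4 fell with GSK126, and 3 rose and 3 fell with BMP2. Among 12 nuclear partners 1 rose and 8 fell with day, with Tle4 at 1.16 ± 0.15. Of 11 tested genes of the polarity and calcium branch, 6 rose and 4 fell with day, with Prickle1 at 3.21 ± 0.20, and 1 rose and 1 fell with GSK126.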

How the data were processed

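RNA-seq counts and RPKM values of 12 libraries were taken from the gene table the authors deposited; libraries were grouped by their titles. The submitters' processing notes list mm10, bcl2fastq, TopHat2 2.0.6 and HTSeq. How reads were assigned to genes, with or without strand, and by which annotation is not given in the sources used here. For overlapping or antisense genes the reads cannot be told apart. The deposited RPKM values are scaled by the authors to coding length and library total, per the file headers and values. All 195176 counts above 0 were even, so each pair seems counted once per mate; read pairs are the deposited counts divided by 2. A limit of 3 pairs was used for a count of 0.

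The 12056 genes that reached 1 CPM in 2 or more libraries were scaled by TMM and tested with edgeR 4.0.16 (R 4.3.3) quasi-likelihood fits over the whole table, with Benjamini-Hochberg adjustment and a threshold of 0.05. For each day the model had an intercept, a GSK126 term and a term per BMP2 dose, in all 8 coefficients with 4 residual degrees of freedom. A second model crossed day, GSK126 and presence of BMP2. Standard errors are those of log2 fold changes. In each comparison, values and tests are given for up to 8 called genes of largest change, and up to 3 per pathway list. Alternatives were DESeq2 1.42.0, library size scaling, other filters, limma-voom (limma 3.58.1), halved counts, single-day fits and leaving out each library in turn. The scripts were tested on simulated data. The 39 genes and the lists were chosen with earlier results of these data known. Of 90 listed pathway genes 1 name matched no row, and Trabd2b was matched through RefSeq synonyms. Rows sharing a name (69) were left out.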

Additional observations from a re-analysis of the deposited data

Results flagged for a closer look

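For 6 genes the change with GSK126 differed between day 6 and day 1 by a test of the difference itself (edgeR quasi-likelihood, Benjamini-Hochberg). The difference of log2 changes, day 6 minus day 1, was 1.10 for Wnt5a (adjusted p = 0.011), 0.91 for Fzd5 (0.014), -1.30 for Axin2 (0.025), -1.29 for Ror1 (0.0094), -0.672 for Ror2 (0.046) and -0.525 for Fzd7 (0.041). For 6 genes the change with BMP2 differed in the same way, by 1.02 for Wnt10b (adjusted p = 0.027), 0.857 for Wnt5b (0.02), 0.856 for Wnt5a (0.037), -0.784 for Fzd2 (0.004), -0.61 for Fzd7 (0.034) and -0.591 for Fzd6 (0.011). Wnt5a and Fzd7 were in both sets, which rest on the same 12 libraries.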

How the results depend on the processing

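Of 71 calls of a gene in a comparison by the main fit, 28 kept their side of the threshold under all alternatives run, and 0 changed direction. Genes that the main fit did not call are outside this count, and their direction could depend on 1 library. For BMP2 on day 6, Wnt10a stood at -0.52 (log2) without day 6 vehicle and at 0.518 without day 6 GSK126. Wnt11 stood at -0.919 and 2.83 in these fits. With DESeq2 the GSK126 effect differed between days for 11 genes in place of 6, the BMP2 effect for 10 in place of 6, BMP2 on day 1 was called for 5 in place of 3, and the interaction for 1 in place of 0. Apart from the interaction, the shares of all genes called under the alternatives are not given here. Counts of the 28 genes under them, here and above, thus cannot be set against all genes. On day 6, fits of 1 day alone called 3 genes for GSK126, 6 for BMP2 and 0 between doses. On day 1 they called 10 for GSK126 and 13 for BMP2. These fits hold 6 libraries, and the shares of all genes they called are not given here. With single libraries left out, counts ranged from 20 to 24 for day, 6 to 15 for GSK126 on day 6, 9 to 20 for BMP2 on day 6, 0 to 10 for BMP2 on day 1, 1 to 14 between doses, 0 to 11 for the GSK126 effect between days, 0 to 13 for the BMP2 effect between days and 0 to 1 for the interaction, and remained 0 for GSK126 on day 1. For the interaction 8 libraries could be left out; without any of the other 4, which lack BMP2, that fit could not be made. Over all genes, the interaction fit called 0 with edgeR and 190 with DESeq2. No paired analysis was possible because each condition has 1 library and the labels give no replicate numbers to pair by; the treatments shared between days are terms of the fit. Wnt7b, Wnt11, Fzd9 and Nkd2 rest on few read pairs on day 1, which limits their day 1 effects.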
